A study of Mus musculus with 23 samples.

Results

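Epithelial oxidant and iron defense genes were followed in the colon of mice colonized with bacteria of low or high bile salt hydrolase activity. The genes are *Nos2*, *Nox1*, *Noxo1*, *Noxa1*, *Duox2*, *Duoxa2*, *Zc3h12a*, *Nfkbiz*, *Lcn2* and *Steap4*, 10 of the 55449 genes in the deposited count table, and all 10 were found by symbol. They were selected on their expression levels in these libraries, with earlier results known, and the selection does not say which comparison it used. Every comparison below is therefore treated as one that may have chosen the genes, and their p-values describe where they stand among all genes and support nothing further.

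RNA was sequenced from colon of male C57BL/6 Cdx2Apc f/w mice, 6 to 8 weeks old at the start and fed a 60% high-fat diet (HFD). In these mice a Cre recombinase under the *Cdx2* promoter deletes 1 floxed allele of *Apc*, a brake on WNT signaling, in epithelial cells that express *Cdx2*, so all 6 groups carry the deletion. After antibiotic water, the mice received Bacteroides fragilis 638R with an empty vector (bsh- in the labels, BF BSHlow) or the same strain with the *bsh* gene of strain NCTC 9343 (bsh+, BF BSHhigh), whose product, bile salt hydrolase, removes glycine or taurine from bile acids. There were 4 libraries of BF BSHlow and 4 of BF BSHhigh normal colon after 2 weeks, 4 and 4 of non-tumor tissue after 12 weeks, and 4 BF BSHlow and 3 BF BSHhigh tumors after 12 weeks. The labels do not say which non-tumor and tumor samples share a mouse or whether each library is 1 mouse, so the p-values measure the spread between these samples.

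The 10 genes make, limit or accompany reactive oxygen and nitrogen species at the gut surface. NOX1 is the NADPH oxidase of colon epithelium, which passes electrons to oxygen with the help of the organizer NOXO1 and the activator NOXA1, and DUOX2 is a related oxidase that releases hydrogen peroxide and needs DUOXA2 to leave the endoplasmic reticulum. NOS2, the inducible nitric oxide synthase, makes nitric oxide from arginine in epithelial cells and in macrophages. LCN2 withholds iron from bacteria by binding their siderophores, and STEAP4 is a metalloreductase that reduces iron and copper. ZC3H12A is an RNase that degrades inflammatory transcripts and NFKBIZ is a nuclear cofactor of NF-kB, and both are known to be induced by IL-17 in epithelial cells.

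In the GENCODE M21 annotation of GRCm38 all 10 are protein-coding genes, and their strand is given in parentheses. The oxidant genes are *Nos2* at chr11:78920787-78960254 (plus), *Nox1* at chrX:134086421-134221956 (minus), *Noxo1* at chr17:24696234-24700529 (plus), *Noxa1* at chr2:25085667-25095149 (minus), *Duox2* at chr2:122279247-122298449 (minus) and *Duoxa2* at chr2:122298900-122302885 (plus). The others are *Zc3h12a* at chr4:125118423-125127840 (minus), *Nfkbiz* at chr16:55811375-55838899 (minus), *Lcn2* at chr2:32384633-32388252 (minus) and *Steap4* at chr5:7960457-7982213 (plus).

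The libraries held from 12401388 to 17903008 expected counts each, and the expected counts of the 10 genes in single libraries reached from 0 for *Lcn2* to 12448 for *Lcn2*. Levels are CPM, the usual unit of counts scaled to library size, on totals adjusted by TMM. A gene is counted as higher or lower where edgeR gave it a Benjamini-Hochberg adjusted p under 0.05 over all genes tested and a log2 fold change beyond 1 in either direction. Transcripts of 10 epithelial markers such as *Epcam* and *Krt8* were present in all groups and summed to between 13500 and 24000 CPM in normal and non-tumor tissue and between 4820 and 10400 CPM in tumors. Transcripts of 8 WNT targets summed to between 1180 and 2710 CPM in tumors and between 63.6 and 115 CPM elsewhere. In the deposited table the columns of the 3 BF BSHhigh tumors repeat the names of BF BSHlow tumors. They were taken as BF BSHhigh tumors from the study's own list of its samples, every value for these tumors rests on that, and they are called replicates a, b and c.

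BF BSHhigh against BF BSHlow tumors addressed what raised bile salt hydrolase activity changed in tumors. All 10 genes had higher fitted levels in BF BSHhigh tumors, 6 rose past both thresholds (*Nos2*, *Nox1*, *Duox2*, *Duoxa2*, *Zc3h12a* and *Steap4*) and 0 fell, beside 0.463% of all 15325 genes tested that were higher and 0.0131% that were lower. In 7 of the 10 genes, the former 6 and *Nfkbiz*, all 3 BF BSHhigh tumors were above all 4 BF BSHlow tumors, as in 7.93% of all genes. The median log2 fold change of the 10 genes was 1.40, and that of all genes was -0.03. Since these values may have been used in choosing the genes, nothing is read from the counts.

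*Nos2* had the widest fold change of the 10 genes in tumors. Its level was 16.2, 16.3, 21.6 and 22.9 CPM in BF BSHlow tumors and 164, 112 and 77.5 CPM in BF BSHhigh tumors. The groups did not overlap, and replicate a was the highest. The fold change was 6.07, or 2.60 ± 0.26 (SE) on the log2 scale, with an adjusted p of 0.029 (edgeR).

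Among the oxidase genes, *Nox1* had 24.9, 26.7, 22.6 and 20.8 CPM in BF BSHlow tumors and 86.0, 62.6 and 74.3 CPM in BF BSHhigh tumors, with no overlap and a narrow spread in both groups. It was 3.11-fold higher (log2 1.64 ± 0.13, adjusted p = 0.0145 from edgeR). The cofactors of NOX1 did not pass the test. *Noxo1* had 31.8, 40.1, 33.0 and 17.6 CPM in BF BSHlow tumors against 76.8, 36.8 and 50.4 CPM in BF BSHhigh tumors, and only replicate b lay within the BF BSHlow range (log2 0.83 ± 0.31, adjusted p = 0.307 from edgeR). *Noxa1* had 12.6, 21.1, 18.3 and 12.9 CPM against 27.1, 16.2 and 21.4 CPM, again with overlap (log2 0.40 ± 0.24, adjusted p = 0.545 from edgeR).

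The 250 bases upstream of the RefSeq start of *Nox1* (GRCm38.p6, chrX:134111855-134112104, minus strand) are shown because *Nox1* passed the test while its cofactors did not. They lie within the longer GENCODE span of *Nox1* (134086421 to 134221956) and hold no annotated exon. Capitals mark 2 matches to TTNNGNAA, the letters used for C/EBP and searched on both strands.
Nox1: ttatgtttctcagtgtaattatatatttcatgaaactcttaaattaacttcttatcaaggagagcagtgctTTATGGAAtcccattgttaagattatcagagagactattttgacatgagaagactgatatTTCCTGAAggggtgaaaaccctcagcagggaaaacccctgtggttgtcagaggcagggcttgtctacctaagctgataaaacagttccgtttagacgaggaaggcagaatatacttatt

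*Duox2* had 41.4, 51.6, 62.7 and 37.2 CPM in BF BSHlow tumors and 379.6, 220.1 and 161 CPM in BF BSHhigh tumors. Its maturation factor *Duoxa2* had 11.5, 10.7, 17.6 and 10.95 CPM in BF BSHlow tumors and 114, 57.5 and 49.9 CPM in BF BSHhigh tumors. In both genes all BF BSHhigh tumors were above all BF BSHlow tumors, and replicate a was the highest and replicate c the lowest of the 3. *Duox2* was 5.22-fold higher (log2 2.39 ± 0.30) and *Duoxa2* was 5.77-fold higher (log2 2.53 ± 0.31), each with an adjusted p of 0.0343 (edgeR).

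*Duox2* and *Duoxa2* stand head to head on chromosome 2 of GRCm38. In GENCODE M21 *Duox2* (minus strand) starts at 122298449 and *Duoxa2* (plus strand) starts at 122298900, with 450 bases between them. The 250 bases next to *Duoxa2* (RefSeq GRCm38.p6, chr2:122298650-122298899, plus strand) lie wholly in this interval and are shown because both neighbours rose. Capitals mark a match to TGANTCA, the letters used for AP-1, 168 to 162 bases before the start, and a TATAAA box 30 to 25 bases before it.
Duoxa2: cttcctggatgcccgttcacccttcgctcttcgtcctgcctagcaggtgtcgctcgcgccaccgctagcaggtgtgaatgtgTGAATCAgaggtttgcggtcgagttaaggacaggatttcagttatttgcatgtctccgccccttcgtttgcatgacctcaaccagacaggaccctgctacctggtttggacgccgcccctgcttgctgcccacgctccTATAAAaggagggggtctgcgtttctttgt

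*Zc3h12a* had the smallest adjusted p of all genes in the tumor comparison. It had 26.8, 27.7, 28.5 and 26.8 CPM in BF BSHlow tumors and 58.8, 57.1 and 54.3 CPM in BF BSHhigh tumors, so that the groups lay far apart relative to their spread (SD of 0.834 and 2.27 CPM). The rise was 2.05-fold (log2 1.04 ± 0.07, adjusted p = 0.0113 from edgeR), just past the fold threshold. *Nfkbiz* had 37.2, 40.4, 60.6 and 34.8 CPM in BF BSHlow tumors and 76.4, 72.4 and 75.9 CPM in BF BSHhigh tumors. The groups did not overlap, and BF BSHlow replicate 3 was the nearest to the other group, but the gene did not pass the thresholds (log2 0.78 ± 0.18, adjusted p = 0.0993 from edgeR).

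The 250 bases upstream of the RefSeq start of *Zc3h12a* (GRCm38.p6, chr4:125127882-125128131, minus strand) are shown because the gene stood first in the tumor comparison. They hold no annotated exon, and capitals mark 1 match to TTNNGNAA.
Zc3h12a: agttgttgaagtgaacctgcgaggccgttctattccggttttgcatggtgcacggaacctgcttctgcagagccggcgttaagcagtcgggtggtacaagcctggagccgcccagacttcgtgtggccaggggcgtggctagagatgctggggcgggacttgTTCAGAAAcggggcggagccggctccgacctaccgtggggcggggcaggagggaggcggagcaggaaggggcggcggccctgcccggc

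Of the iron genes, *Steap4* had 16.8, 17.96, 29.9 and 32.1 CPM in BF BSHlow tumors and 91.7, 88.9 and 84.3 CPM in BF BSHhigh tumors, a 3.62-fold rise with no overlap (log2 1.86 ± 0.23, adjusted p = 0.0343 from edgeR). *Lcn2* had 103, 84.1, 197 and 261 CPM in BF BSHlow tumors and 206, 287 and 594 CPM in BF BSHhigh tumors. Replicate a lay below BF BSHlow replicate 4, and the difference did not pass the test (log2 1.16 ± 0.48, adjusted p = 0.361 from edgeR).

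The 6 calls depended on single libraries. Without BF BSHlow replicate 1, 3 or 4, 0 of the 10 genes and 0 of all genes passed. Without BF BSHlow replicate 2 there were 2 of the 10 and 3 in all, without BF BSHhigh replicate a 3 and 6, without replicate b 1 and 1, and without replicate c 6 and 240. The fold changes themselves moved little when 1 library was left out, from 2.28 to 2.83 on the log2 scale for *Nos2*, 1.52 to 1.75 for *Nox1*, 1.97 to 2.63 for *Duox2*, 2.07 to 2.74 for *Duoxa2*, 1.01 to 1.06 for *Zc3h12a* and 1.72 to 2.03 for *Steap4*.

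**Figure D1:**
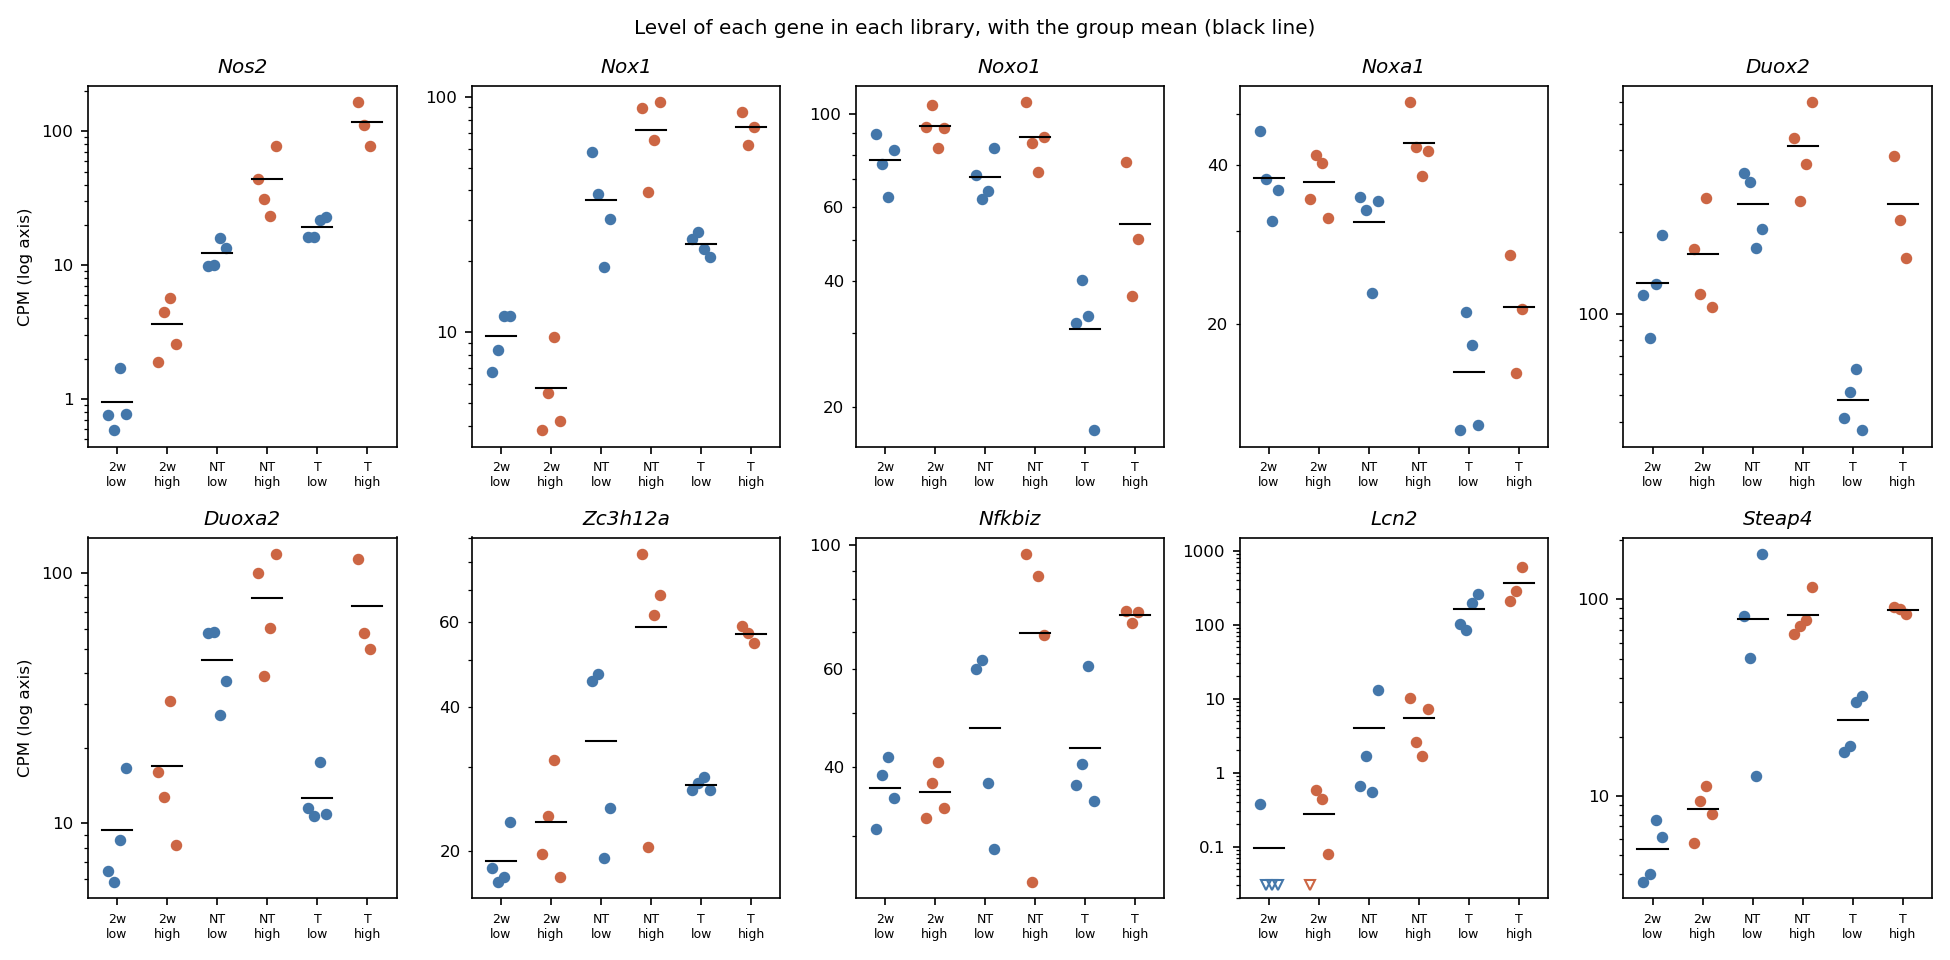
Level of each of the 10 genes in CPM (log axis, a range of its own for each gene) in each of the 23 libraries, for normal colon at 2 weeks (2w), non-tumor tissue (NT) and tumors (T) at 12 weeks with BF BSHlow (low, blue) or BF BSHhigh (high, orange). Points are libraries, black lines are group means, and open triangles at the bottom of the *Lcn2* panel are the 4 libraries with 0 counts. In tumors the orange points of *Nos2*, *Nox1*, *Duox2*, *Duoxa2*, *Zc3h12a*, *Nfkbiz* and *Steap4* all lie above the blue points.

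Markers of other cell types were summed in the tumor groups too, beside the 0.463% of all genes called higher. Markers of neutrophils, which store LCN2, summed to between 173 and 530 CPM in BF BSHlow tumors and between 400 and 668 CPM in BF BSHhigh tumors, overlapping ranges, with 1 of 7 tested called higher and *Elane* at 0 in all BF BSHlow tumors. Macrophage and monocyte markers, whose cells can express *Nos2*, summed to 353 to 1050 and 803 to 1070 CPM, again overlapping, with 0 of 9 called, and all 9 had counts in both groups. Goblet cell markers summed to 138 to 239 CPM in BF BSHlow and 789 to 4900 CPM in BF BSHhigh tumors (12600 to 35400 CPM in the other groups), and 2 of 7 were called higher (median 4.08 on the log2 scale). Absorptive colonocyte markers summed to 44.8 to 126 and 81.6 to 312 CPM, with overlap, and 2 of 7 were called higher (median 2.83). Sums without overlap were also those of B and plasma cell markers, at 2.15 to 31.5 and 464 to 734 CPM (1 of 5 called), T cell markers, at 7.04 to 20.7 and 34.5 to 45 CPM (0 of 7 called), and squamous markers, at 81 to 216 and 39.5 to 58.6 CPM (0 of 6 called). Smooth muscle markers (146 to 295 and 214 to 380 CPM), fibroblast markers (1560 to 3540 and 1950 to 2320 CPM) and the WNT targets overlapped between the groups. Goblet cell sums in BF BSHhigh replicates a, b and c were 4900, 1540 and 789 CPM. Absorptive colonocyte sums there were 312, 101 and 81.6 CPM. Smooth muscle, macrophage and T cell sums had this order of replicates too, and the remaining sums did not. *Nos2*, *Duox2*, *Duoxa2*, *Zc3h12a* and *Steap4* had the same order, and the other genes of the 10 did not. The part of these cells in the values of the 10 genes was not tested, and in bulk tissue fewer cells of a type and less RNA per cell cannot be told apart.

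BF BSHhigh against BF BSHlow non-tumor tissue at 12 weeks asked the same outside tumors. With edgeR 0 of the 10 genes passed the thresholds, beside 0% of all 14933 genes, although 5 of the 10 and 1377 genes in all had an unadjusted p under 0.05. DESeq2 called 1 of the 10 and 53 genes in all, and limma-voom called 0. All 10 fitted log2 fold changes were above 0, with a median of 0.63 beside -0.01 over all genes. *Nos2* and *Noxa1* had all BF BSHhigh libraries above all BF BSHlow libraries, as in 3.23% of all genes. *Nos2* had 9.86, 10.1, 16.02 and 13.5 CPM with BF BSHlow and 43.6, 31.2, 23.1 and 78.0 CPM with BF BSHhigh, and replicate 4 of BF BSHhigh was the highest (log2 1.82 ± 0.36, adjusted p = 0.271 from edgeR). *Nos2* was the gene that DESeq2 called, and its adjusted p over all alternatives was between 9.98e-05 with DESeq2 and 0.638.

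*Noxa1* had 34.9, 32.9, 22.9 and 34.3 CPM with BF BSHlow and 52.5, 43.2, 38.1 and 42.5 CPM with BF BSHhigh non-tumor tissue (log2 0.49 ± 0.15, adjusted p = 0.408 from edgeR). The values of the other genes overlapped between the groups. Replicate 2 of BF BSHhigh had the lowest value of its group for *Nox1* (39.2 CPM), *Duox2* (260.1 CPM), *Duoxa2* (38.9 CPM), *Zc3h12a* (20.4 CPM) and *Nfkbiz* (24.8 CPM), whose other BF BSHhigh libraries reached 94.6, 598, 119, 83.3 and 96.5 CPM. In BF BSHlow, replicate 3 or 4 had the lowest values of the same 5 genes. *Steap4* was spread from 12.7 to 171 CPM in BF BSHlow and from 67.0 to 116 CPM in BF BSHhigh (log2 0.07 ± 0.60).

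After 2 weeks, 9 of the 10 genes were tested and 0 passed the thresholds, beside 0.00727% of all 13752 genes, and 3 of the 9 and 935 genes in all had an unadjusted p under 0.05 with edgeR. *Nos2* was low in all of these libraries, with 0.759, 0.584, 1.71 and 0.774 CPM with BF BSHlow and 1.91, 4.49, 5.64 and 2.57 CPM with BF BSHhigh. Its groups did not overlap, as in 2.09% of all genes with BF BSHhigh above (log2 1.94 ± 0.45, adjusted p = 0.581 from edgeR). Only DESeq2 called *Nos2* (adjusted p = 0.019, in a range of 0.019 to 0.742 over all alternatives), beside 0.204% of all genes. Neutrophil markers summed to 2.5 to 7.32 CPM in the BF BSHlow and 8.98 to 69.3 CPM in the BF BSHhigh libraries, without overlap. Only 1 of the 9 neutrophil markers had enough counts to be tested, and it was not called. *Mpo* was at 0 in all libraries of both groups and *Elane* in all BF BSHhigh libraries. Macrophage and monocyte markers summed to 46.2 to 80.6 and 66.4 to 143 CPM, with overlap. The part of these cells in the *Nos2* values was not tested.

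*Nox1* was the tested gene with the lowest fold change at 2 weeks, with 6.75, 8.42, 11.7 and 11.7 CPM with BF BSHlow and 3.82, 5.52, 9.51 and 4.17 CPM with BF BSHhigh, overlapping groups (log2 -0.74 ± 0.30, adjusted p = 0.718 from edgeR). The tested genes other than *Nos2* and *Nox1* had log2 fold changes between -0.04 and 0.85. *Lcn2* had at most 8 counts in any of these 8 libraries and was not tested. It had 0 counts in 4 of them, where 3 counts would be 0.211 to 0.284 CPM.

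**Figure D2:**
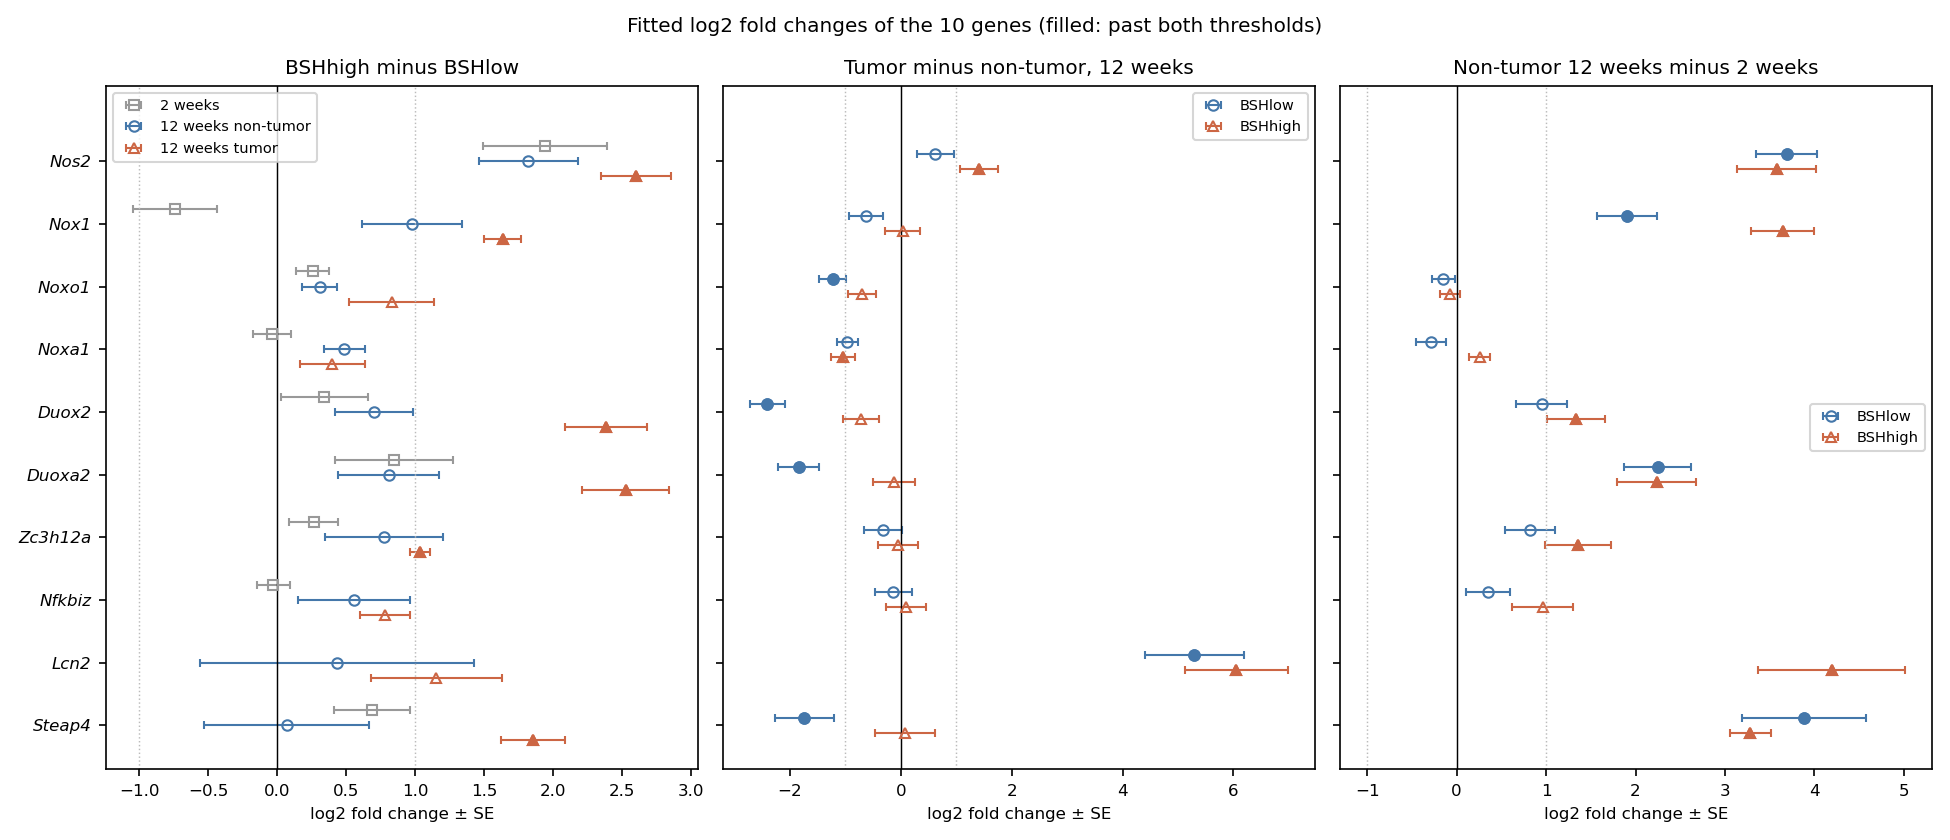
Fitted log2 fold changes with their standard errors (bars) from edgeR for the 10 genes. The panels give BF BSHhigh against BF BSHlow in 3 tissues, tumor against non-tumor tissue and non-tumor tissue at 12 weeks against normal colon at 2 weeks. Filled symbols passed both thresholds (the dotted lines mark the fold limit), *Lcn2* is absent where it was not tested, and the 6 filled triangles of the left panel are the genes that rose in tumors.

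Tumor against non-tumor tissue within each colonization asked how far tumors had departed from the colon around them. With BF BSHlow, 4 of the 10 genes fell (*Noxo1*, *Duox2*, *Duoxa2* and *Steap4*) and 1 rose (*Lcn2*), beside 19.5% of all 16454 genes that were lower and 16.7% that were higher. With BF BSHhigh, 1 fell (*Noxa1*) and 2 rose (*Nos2* and *Lcn2*), beside 14.8% and 14.6%. Without BF BSHhigh tumor replicate a, *Duox2* (log2 -1.13) and *Noxo1* (-1.025) were called lower as well, and *Noxa1* lost its call without tumor replicate b (-0.87) or BF BSHhigh non-tumor replicate 1 (-0.95).

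*Duox2* had 329, 306, 174 and 204 CPM in BF BSHlow non-tumor tissue and at most 62.7 CPM in BF BSHlow tumors, a log2 change of -2.41 ± 0.31 (adjusted p = 1.21e-05 from edgeR). *Duoxa2* went from 57.8, 58.4, 27.2 and 37.0 CPM in non-tumor tissue to at most 17.6 CPM in tumors (log2 -1.84 ± 0.37, adjusted p = 0.000565 from edgeR). The tissues did not overlap in either gene, and 27.7% of all genes had all BF BSHlow tumors below all non-tumor libraries. With BF BSHhigh, non-tumor tissue had 442, 260.1, 356 and 598 CPM of *Duox2* and 100.1, 38.9, 60.4 and 119 CPM of *Duoxa2*, and tumors overlapped with these ranges (log2 -0.72 ± 0.33 and -0.12 ± 0.38, adjusted p = 0.075 and 0.81 from edgeR).

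*Noxo1* had 71.6, 62.7, 65.7 and 83.2 CPM in BF BSHlow non-tumor tissue, above every tumor of that group, and fell by 1.23 ± 0.24 on the log2 scale (adjusted p = 0.000451 from edgeR). With BF BSHhigh its 106.7, 85.3, 72.6 and 88.0 CPM overlapped with the tumors (log2 -0.70 ± 0.26, adjusted p = 0.033 from edgeR), under the fold threshold. *Noxa1* was lower in tumors by nearly the same amount in both groups, with log2 changes of -0.96 ± 0.20 and -1.04 ± 0.21 (adjusted p = 0.000619 and 0.000918 from edgeR), of which only the latter was past the fold threshold. All tumors were below all non-tumor libraries of the same colonization, as in 27.7% of all genes with BF BSHlow and 29% with BF BSHhigh. *Nox1* itself had log2 changes of -0.63 ± 0.30 and 0.04 ± 0.32, the latter -0.02 with RLE scaling, and its tissues overlapped.

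Of the 10 genes, *Lcn2* was the most raised in tumors. BF BSHlow non-tumor tissue had 0.667, 1.66, 0.546 and 13.04 CPM and BF BSHhigh non-tumor tissue 10.3, 2.62, 1.70 and 7.26 CPM, while no tumor had fewer than 84.1 CPM. All tumors were above all non-tumor libraries, as in 29.3% of all genes with BF BSHlow and 32.2% with BF BSHhigh. The log2 changes were 5.30 ± 0.90 with BF BSHlow and 6.06 ± 0.93 with BF BSHhigh (adjusted p = 0.000129 and 9.03e-05 from edgeR). Neutrophil markers summed to 145 to 199 CPM in BF BSHlow and 226 to 387 CPM in BF BSHhigh non-tumor tissue, and of 7 tested 6 were called higher and 1 lower in tumors with BF BSHlow and 4 higher and 1 lower with BF BSHhigh, beside 16.7% and 14.6% of all genes higher. Their part in the rise of *Lcn2* was not tested.

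*Steap4* fell by 1.74 ± 0.53 on the log2 scale in BF BSHlow tumors (adjusted p = 0.00973 from edgeR), although non-tumor replicate 3, with 12.7 CPM, was below all tumors and replicate 4, with 171 CPM, was far above the others at 82.6 and 50.4 CPM. Without replicate 4 of BF BSHlow non-tumor tissue the log2 change was -1.01 and the call was lost, and it was also lost with limma-voom (-1.25). In BF BSHhigh its level in tumors, 84.3 to 91.7 CPM, lay within the non-tumor values of 67.0, 73.4, 78.3 and 116 CPM. *Nos2* rose in BF BSHhigh tumors by 1.42 ± 0.35 on the log2 scale (adjusted p = 0.00307 from edgeR), with tumor replicate c just below non-tumor replicate 4. With BF BSHlow all tumors were above all non-tumor libraries, but the change of 0.62 ± 0.34 did not pass (adjusted p = 0.118 from edgeR).

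Whether the effect of BF BSHhigh differed between tumor and non-tumor tissue was tested with an interaction term over the 15 libraries of 12 weeks. With edgeR 0 of the 10 genes passed, beside 0.978% of all 16454 genes. An unadjusted p under 0.05 was found for 3 of the 10 and for 1580 of all genes. DESeq2 called 2 of the 10, beside 2.35% of all genes, and limma-voom called 0, beside 0%. The largest fitted differences were those of *Steap4* (log2 1.81 ± 0.75, adjusted p = 0.426 from edgeR), *Duoxa2* (1.72 ± 0.52, adjusted p = 0.195) and *Duox2* (1.69 ± 0.44, adjusted p = 0.0975). The calls of DESeq2 were *Duox2* (adjusted p = 0.0109) and *Duoxa2* (adjusted p = 0.0489), and edgeR called *Duox2* without BF BSHhigh tumor replicate c (adjusted p = 0.0344). Over all alternatives the adjusted p of *Duox2* was between 0.0109 and 0.376 and that of *Duoxa2* between 0.0489 and 0.633. The rise in tumors past the threshold and its absence in non-tumor tissue therefore do not show that the effects differed.

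Non-tumor tissue at 12 weeks was compared with normal colon at 2 weeks of the same colonization. With BF BSHlow, 4 of 9 tested genes rose (*Nos2*, *Nox1*, *Duoxa2* and *Steap4*), beside 15.1% of all 14555 genes, and with BF BSHhigh 7 of 10 rose (*Nos2*, *Nox1*, *Duox2*, *Duoxa2*, *Zc3h12a*, *Lcn2* and *Steap4*), beside 15.9% of all 14638 genes. Of the tested genes 0 fell in either, beside 7.59% and 7.34% of all genes. The times did not overlap for 5 genes with BF BSHlow (the 4 and *Lcn2*) and for 5 with BF BSHhigh (*Nos2*, *Nox1*, *Duoxa2*, *Lcn2* and *Steap4*), all higher at 12 weeks, beside 21.5% and 25.2% of all genes. Without BF BSHlow non-tumor replicate 3, 7 of the 10 genes were called higher with BF BSHlow, beside 2155 of all 14842 genes. They were the 4 and *Duox2* (log2 1.10), *Zc3h12a* (1.02) and *Lcn2*, which passed the filter on low counts in that fit. Age, time on the diet and time of colonization changed together and cannot be told apart.

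*Steap4* had 3.64, 4.003, 7.49 and 6.19 CPM at 2 weeks with BF BSHlow and 5.72, 9.35, 11.2 and 8.10 CPM with BF BSHhigh. At 12 weeks every non-tumor library was above these, and the log2 changes were 3.89 ± 0.70 and 3.29 ± 0.23 (adjusted p = 0.00187 and 1.87e-05 from edgeR). *Nos2* rose by 3.69 ± 0.34 with BF BSHlow and by 3.58 ± 0.45 with BF BSHhigh on the log2 scale (adjusted p = 5.99e-05 and 0.000217 from edgeR), and *Nox1* by 1.91 ± 0.33 and 3.64 ± 0.35 (adjusted p = 0.00168 and 6.59e-05 from edgeR). The difference between the colonizations in these changes was not tested.

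*Duoxa2* had 6.45, 5.84, 8.62 and 16.6 CPM at 2 weeks with BF BSHlow and 16.1, 12.7, 31.0 and 8.18 CPM with BF BSHhigh, and rose by 2.25 ± 0.37 and 2.24 ± 0.45 on the log2 scale, with no overlap between the times. *Duox2* had 117, 81.2, 128 and 194 CPM and 173, 118, 265 and 106 CPM at 2 weeks, and its changes were smaller, at 0.95 ± 0.29 and 1.33 ± 0.33, with overlap. *Noxo1* (63.4 to 105.4 CPM at 2 weeks) and *Noxa1* (31.4 to 46.4 CPM) had log2 changes between -0.29 and 0.26, and neither passed. *Lcn2* rose by 4.19 ± 0.82 with BF BSHhigh (adjusted p = 0.00238 from edgeR), and the value rests on 2-week libraries with 0 to 8 counts. *Zc3h12a* had 17.3 to 23.01 CPM at 2 weeks with BF BSHlow and 17.7 to 31.0 CPM with BF BSHhigh, and its log2 changes were 0.82 ± 0.28 and 1.36 ± 0.37 (adjusted p = 0.039 and 0.013 from edgeR), the former under the fold threshold. *Nfkbiz*, at 30.9 to 41.7 CPM at 2 weeks, had log2 changes of 0.35 ± 0.24 and 0.96 ± 0.34 and was not called.

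The tissue itself differed between the times. Smooth muscle markers summed to between 15.2 and 230 CPM at 2 weeks and between 1590 and 8720 CPM in non-tumor tissue at 12 weeks, while absorptive colonocyte markers summed to between 12300 and 26000 CPM and between 1540 and 4270 CPM. Macrophage and monocyte markers summed to 46.2 to 143 CPM and 162 to 776 CPM, and neutrophil markers to 2.5 to 69.3 CPM and 145 to 387 CPM. The epithelial markers differed less, at 17800 to 24000 and 13500 to 17900 CPM. The part of tissue composition in the changes of the 10 genes was not tested.

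Across the 6 groups the genes did not follow a single order. Mean *Nos2* rose from 0.956 ± 0.508 CPM (SD, n = 4) in BF BSHlow normal colon through 3.65 ± 1.72, 12.4 ± 2.95, 19.2 ± 3.51 and 44.0 ± 24.2 CPM to 118 ± 43.6 CPM (n = 3) in BF BSHhigh tumors, and only the last neighbours in this order, BF BSHhigh non-tumor tissue and BF BSHhigh tumors, overlapped. *Duox2* was lowest in BF BSHlow tumors, at 48.2 ± 11.4 CPM, below every library of every other group. Its other neighbouring groups overlapped, up to 414 ± 144 CPM in BF BSHhigh non-tumor tissue. *Noxo1* and *Noxa1* were lowest in BF BSHlow tumors (30.6 ± 9.44 and 16.2 ± 4.19 CPM), with overlap between all neighbouring groups in their orders.

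Per kilobase of exon, which allows levels of different genes to be set side by side, *Duox2* was the highest of the 10 genes in non-tumor tissue, with 37.4 ± 11.2 CPM per kb with BF BSHlow and 61.2 ± 21.2 CPM per kb with BF BSHhigh (n = 4 each), beside 28.3 ± 9.76 and 50.1 ± 23.03 CPM per kb of *Duoxa2*, whose ranges overlapped with those of *Duox2*. In tumors *Lcn2* was the highest, with 61.5 ± 31.6 CPM per kb with BF BSHlow and 138 ± 78.1 CPM per kb with BF BSHhigh. In BF BSHlow normal colon at 2 weeks *Noxo1* (25.9 ± 3.71), *Noxa1* (23.4 ± 3.91) and *Duox2* (19.2 ± 6.94 CPM per kb) had overlapping ranges, and *Nox1* stood at 2.91 ± 0.742 and *Nos2* at 0.217 ± 0.115 CPM per kb. The cofactor genes of NOX1 thus had higher counts per kilobase at 2 weeks than *Nox1* itself. Exons of *Nox1*, *Noxo1* and *Noxa1* overlap with genes on the opposite strand, and whether the counting used strand is not given in the sources used here.

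Because partners share a library, their ratio can be followed within each. The CPM ratio of *Nox1* to *Noxa1* was 0.267 ± 0.102 and 0.152 ± 0.0562 at 2 weeks with BF BSHlow and BF BSHhigh, 1.13 ± 0.385 and 1.64 ± 0.545 in non-tumor tissue, 1.52 ± 0.348 in BF BSHlow tumors and 3.51 ± 0.349 in BF BSHhigh tumors. The 3 BF BSHhigh tumors, at 3.18 to 3.87, were above all other libraries, which reached 2.23. The ratio of *Nox1* to *Noxo1* was 0.8291 ± 0.242 in BF BSHlow tumors and 1.43 ± 0.295 in BF BSHhigh tumors, with overlapping ranges of 0.666 to 1.18 and 1.12 to 1.70.

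The ratio of *Duoxa2* to *Duox2* differed with the tissue. It was 0.0700 ± 0.0126 and 0.0988 ± 0.0175 at 2 weeks with BF BSHlow and BF BSHhigh, 0.176 ± 0.0146 and 0.186 ± 0.0337 in non-tumor tissue, and 0.265 ± 0.0395 and 0.291 ± 0.0263 in tumors. Within each tissue the ranges of BF BSHlow and BF BSHhigh overlapped. All non-tumor libraries were above all libraries of 2 weeks (0.149 to 0.226 against 0.0551 to 0.117), and within each colonization all tumors (0.207 to 0.294 with BF BSHlow, 0.261 to 0.311 with BF BSHhigh) were above all non-tumor libraries.

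**Figure D3:**
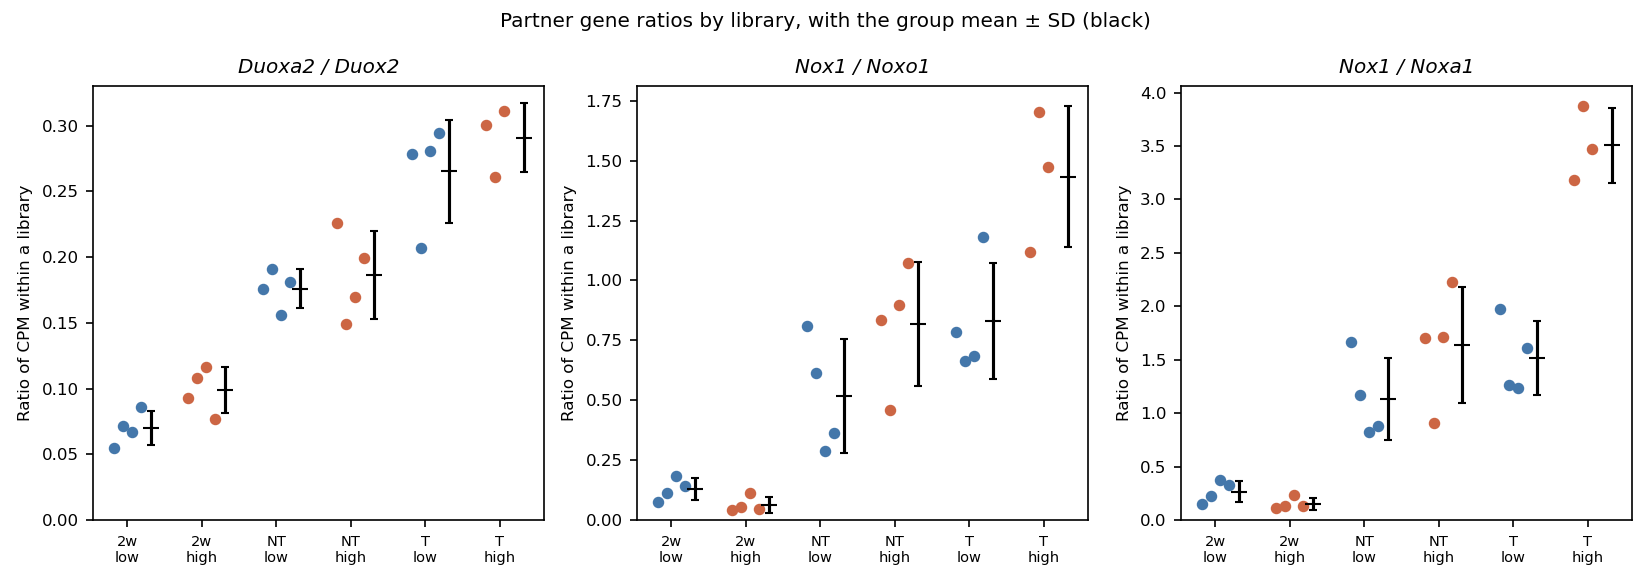
Ratio of the CPM of partner genes within each library for the 6 groups, with libraries as points (BF BSHlow blue, BF BSHhigh orange) and the group mean and SD in black beside them. All axes start at 0. The 3 BF BSHhigh tumors have the highest ratios of *Nox1* to *Noxa1*, between 3.18 and 3.87.

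Variation between libraries of one group was compared between genes by Pearson's r of the log2 CPM deviations from the group means over 23 libraries, as a description. The deviations share the scaling of each library, and Spearman's rho and r without the 2 farthest libraries are given beside r. Over 45 gene pairs r was between -0.07 and 0.95, with a median of 0.32. An r near 0 was usual among all genes, and that of *Nos2* and *Noxa1*, 0.04, was at percentile 49.6 of the r of all genes with *Nos2*. The highest r was that of *Duox2* and *Duoxa2*, at 0.95 (rho 0.91, r 0.93 without the 2 farthest). *Zc3h12a* and *Nfkbiz* followed with 0.86 (rho 0.75, r 0.75), *Nox1* and *Zc3h12a* with 0.82 (rho 0.80, r 0.74), *Nox1* and *Duoxa2* with 0.78 (rho 0.76, r 0.72) and *Noxo1* and *Noxa1* with 0.74 (rho 0.73, r 0.71).

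Among *Nox1*, *Duox2*, *Duoxa2*, *Zc3h12a* and *Nfkbiz*, grouped after these values were seen, r was between 0.48 and 0.95. *Nox1* had an r of 0.14 with *Noxo1* and 0.37 with *Noxa1*, at percentiles 67.1 and 89.91 of the r of all genes with *Nox1*. The highest r of *Nos2* with another of the 10 genes was 0.43, with *Duoxa2*, at percentile 93.79 of the r of all genes with *Nos2*. That of *Lcn2* was 0.53, with *Steap4* (rho 0.31, r 0.44), at percentile 97.35 of the r of all genes with *Lcn2*. Among 14400 genes with a mean of at least 1 CPM, the 3 most like *Nox1* were *Zc3h12a* (r 0.82), *Fads1* (0.82) and *Nod2* (0.81). Those most like *Duox2* were *Duoxa2* (0.95), *Tm9sf4* (0.84) and *B3gnt9* (0.82), those most like *Nos2* were *Fabp4* (0.80), *Cfd* (0.78) and *Cd36* (0.78), and those most like *Lcn2* were *Notum* (0.81), *3110082I17Rik* (0.81) and *Ptges2* (0.80).

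**Figure D4:**
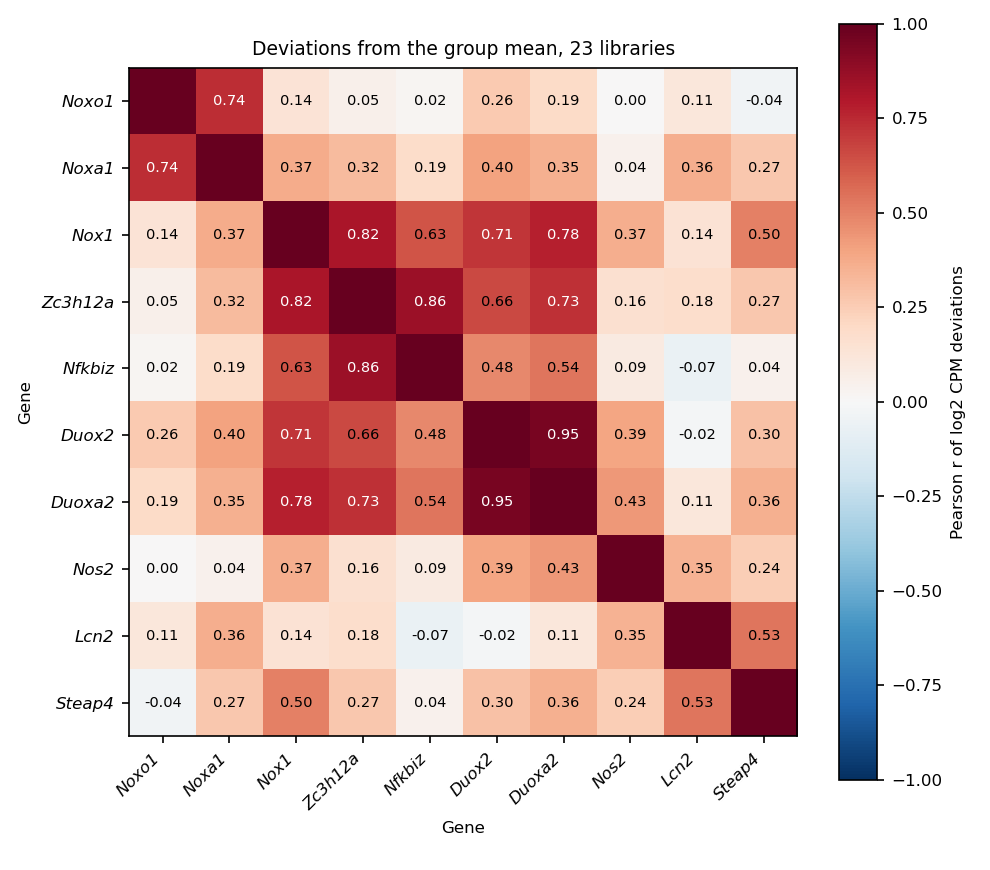
Pearson r between the log2 CPM deviations of each pair of the 10 genes from the mean of their group, over 23 libraries. Color runs from -1 to 1 and the value stands in each cell. *Duox2* and *Duoxa2* (0.95) and *Zc3h12a* and *Nfkbiz* (0.86) have the highest values, and *Nox1* has 0.14 with *Noxo1*.

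The wider pathways were described with 6 lists of 92 other genes. In BF BSHhigh against BF BSHlow tumors, 0 of 84 tested passed with edgeR, while 20 had an unadjusted p under 0.05, as did 1946 of all 15325 genes. With DESeq2 9 passed, beside 534 of all genes, and the median log2 fold change of the pathway genes was 0.17. Groups without overlap are named below, and 7.93% of all genes had all BF BSHhigh tumors above all BF BSHlow tumors. No share of all genes is given for BF BSHhigh below. Of the NADPH oxidase list 0 of 8 passed (median 0.63). *Cybb*, the phagocyte oxidase, had 30.7, 9.44, 10.16 and 13.98 CPM in BF BSHlow tumors and 32.8, 25.5 and 19.4 CPM in BF BSHhigh tumors, overlapping groups (log2 0.67 ± 0.43, adjusted p = 0.574 from edgeR). *Duox1* and *Duoxa1*, the other oxidase and maturation factor pair of the locus, were below 1 CPM on average in tumors and were not tested.

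Of the cytokine list 0 of 12 passed in tumors (median 0.40). *Il17a*, the T cell cytokine that induces several of the 10 genes in epithelial cells, had 0.982, 0.205, 1.10 and 0.147 CPM in BF BSHlow tumors and 4.40, 10.99 and 5.06 CPM in BF BSHhigh tumors, with no overlap (log2 3.45 ± 0.69, adjusted p = 0.0687 from edgeR). *Il1b* had 41.3, 29.1, 32.7 and 37.1 CPM against 57.5, 66.1 and 177 CPM, also with no overlap (log2 1.51 ± 0.38, adjusted p = 0.126 from edgeR). In 7.93% of all genes all BF BSHhigh tumors were likewise above all BF BSHlow tumors. The receptor subunit *Il22ra1* had 5.99 CPM on average in BF BSHlow and 13.8 CPM in BF BSHhigh tumors (log2 1.19 ± 0.29, adjusted p = 0.112 from edgeR), and *Il22* itself was too low to be tested. *Il22ra1* was named after its values were seen.

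Of the iron list 0 of 17 passed in tumors (median 0.16). *Steap3*, another metalloreductase, had 4.37, 2.77, 4.29 and 4.01 CPM in BF BSHlow tumors and 14.3, 9.11 and 7.68 CPM in BF BSHhigh tumors, with no overlap (log2 1.41 ± 0.28, adjusted p = 0.0664 from edgeR), whereas *Steap1* had a log2 fold change of -0.06 ± 0.16. *Tfrc*, the transferrin receptor, had a log2 fold change of 1.21 ± 0.28 (adjusted p = 0.102 from edgeR), with overlapping groups. The groups did not overlap in *Heph*, with BF BSHhigh above, as in 7.93% of all genes (log2 1.57 ± 0.45, adjusted p = 0.178 from edgeR). In *Cybrd1* they did not overlap with BF BSHhigh below (log2 -0.96 ± 0.34, adjusted p = 0.284 from edgeR). *Heph* and *Cybrd1* were named after their values were seen.

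Of the antioxidant list 0 of 22 passed in tumors (median 0.04). *Hmox1*, which degrades heme, had 144, 222, 325 and 151 CPM in BF BSHlow tumors and 44.2, 86.0 and 81.0 CPM in BF BSHhigh tumors, with BF BSHhigh below (log2 -1.59 ± 0.34, adjusted p = 0.0846 from edgeR). *Prdx6*, a peroxiredoxin, had 141, 128, 192 and 133 CPM against 782, 444 and 278 CPM, with BF BSHhigh above (log2 1.75 ± 0.32, adjusted p = 0.0585 from edgeR). The groups also did not overlap in *Slc7a11*, with BF BSHhigh below (log2 -0.72 ± 0.15, adjusted p = 0.0716 from edgeR). *Txn1* had no overlap either, with BF BSHhigh above, as in 7.93% of all genes (log2 0.62 ± 0.22, adjusted p = 0.286 from edgeR). *Prdx6*, *Slc7a11* and *Txn1* were named here after their values were seen.

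Of the remaining lists in tumors, 0 of 7 arginine and nitric oxide and 0 of 18 NF-kB feedback genes passed (medians of 0.24 and 0.02). The inhibitor *Nfkbia* had a log2 fold change of 0.12 ± 0.22 and *Tnfaip3* one of 0.73 ± 0.24 (adjusted p = 0.855 and 0.24 from edgeR). In non-tumor tissue 0 of 80 tested pathway genes passed and 11 had an unadjusted p under 0.05, beside 1377 of all 14933 genes (edgeR, and DESeq2 called 1). At 2 weeks 0 of 73 passed and 5 had an unadjusted p under 0.05, beside 935 of all 13752 genes (edgeR, and DESeq2 called 0). *Il1b* in non-tumor tissue had 1.48, 2.81, 1.5 and 3.68 CPM with BF BSHlow and 66.8, 22.7, 5.46 and 8.83 CPM with BF BSHhigh (log2 3.43 ± 0.79, adjusted p = 0.328 from edgeR).

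Between tumors and non-tumor tissue, 22 of 85 pathway genes rose and 17 fell with BF BSHlow, beside 16.7% and 19.5% of all genes, and 23 rose and 10 fell with BF BSHhigh, beside 14.6% and 14.8%. With BF BSHlow the lowest adjusted p belonged to *Steap3* (log2 -3.39), the cystine transporter *Slc7a11* (4.68), the receptor subunits *Il17rc* (-2.42) and *Il22ra1* (-3.18) and the peroxiredoxins *Prdx6* (-4.27) and *Prdx2* (1.17). With BF BSHhigh they were *Slc7a11* (3.76), the oxidase subunit *Cyba* (1.61), *Prdx2* (1.02), *Il23a* (5.50), *Steap2* (1.62) and *Steap1* (2.12). The iron exporter *Slc40a1* fell in both (log2 -3.34 and -2.60), and *Arg1*, which competes with NOS2 for arginine, rose in both (5.02 and 5.02). In the interaction term *Steap3* (log2 1.43 ± 0.26, adjusted p = 0.0179 from edgeR) and *Prdx6* (2.05 ± 0.40, adjusted p = 0.0237) were the 2 of 85 pathway genes that passed, beside 0.978% of all 16454 genes. Both had a larger effect of BF BSHhigh in tumors, and limma-voom called 0, beside 0% of all genes. Mean *Prdx6* was 2824 CPM in BF BSHlow non-tumor tissue and 148 CPM in BF BSHlow tumors, against 2325 and 501 CPM with BF BSHhigh. Mean *Steap3* was 40.1 and 3.86 CPM, against 39.9 and 10.4 CPM. The part of tissue composition in these values was not tested.

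Between 2 and 12 weeks, 15 of 78 pathway genes rose and 6 fell with BF BSHlow, beside 15.1% and 7.59% of all genes, and 17 rose and 6 fell with BF BSHhigh, beside 15.9% and 7.34%. *Ass1*, which makes the arginine precursor argininosuccinate, rose by 2.11 ± 0.17 and 2.30 ± 0.21 on the log2 scale and *Cybb* by 2.64 and 2.52, while the NRF2 target *Nqo1* fell by 2.14 and 2.00. *Nos1*, the neuronal synthase, rose by 5.09 and 4.43 on the log2 scale.

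RefSeq (GRCm38.p6) promoter windows were matched for 8 of the 10 genes, without *Nos2* and *Nfkbiz*, and the 250 bases before each start were searched on both strands. TTNNGNAA (C/EBP) was found in 6 of the 8, beside 36.8% of 32851 promoters, TTCNNNGAA (STAT) in 1, *Steap4*, beside 7.02%, and TGANTCA (AP-1) in 1, *Duoxa2*, beside 6.75%. TATAAA was found in 2, beside 12.4%. TGACNNNGC (antioxidant response element core) and CTTTGAT (TCF/LEF) were found in none of the 8 windows, beside 10.2% and 3.21% of all promoters. For NF-kB only 1 pattern was searched, and it was found in none of the 8 windows, beside 1.21% of all promoters. NF-kB sites with other letters would be missed by that pattern, so their absence from the 8 windows is not shown. By GENCODE M21, 4 of the 8 windows hold exon sequence (222 bases of *Duox2* in its own window, 139 of *Lcn2* in its own, 173 of *Gfer* in that of *Noxo1* and 83 of *Gm30835* in that of *Steap4*), and 3 of the 6 windows with TTNNGNAA (*Duox2*, *Lcn2* and *Steap4*) are among them. A match is a match of letters, and no binding was measured.

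Exons of 4 of the 10 genes overlap with a gene on the opposite strand in the annotation, and whether the counting used strand is not given in the sources used here. In tumors with BF BSHhigh against BF BSHlow, *Cstf2*, which overlaps with *Nox1*, had a log2 fold change of -0.14 ± 0.14, *Tbl3*, which overlaps with *Noxo1*, one of -0.21 ± 0.10, and *Entpd8*, which overlaps with *Noxa1*, one of 0.91 ± 0.35 (adjusted p = 0.726, 0.416 and 0.323 from edgeR). Between tumor and non-tumor tissue with BF BSHlow, *Tbl3* moved by 1.44 and *Noxo1* by -1.23, and *Entpd8* moved by -2.64 and *Noxa1* by -0.96. *Duoxa1*, which overlaps with *Duoxa2*, had 0.571 CPM on average in BF BSHhigh tumors.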

How the data were processed

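Bulk RNA of 23 mouse colon libraries was sequenced by the authors. Reads were trimmed with Cutadapt, aligned with STAR to mm10 and counted with RSEM, and the authors deposited 1 table of expected counts per gene. The labels describe total RNA libraries and the study's methods mRNA libraries, both stranded. Whether the counting used strand is not given in the sources used here. Columns in the table were given a group by their names, except the 3 BF BSHhigh tumor columns, whose names repeat those of BF BSHlow tumors. Of the values 4.237% were not whole and were rounded, and 1 entry without a gene name and 1 gene with a text cell were left out of 55449 genes used, of which 26837 were at 0 in all libraries.

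Counts were scaled by TMM, low genes were removed with filterByExpr within each comparison, and groups were compared with edgeR 4.0.16 in R 4.3.3 (glmQLFit and glmQLFTest, quasi-likelihood, two-sided). Adjusted p-values are those of Benjamini and Hochberg over all genes tested. A call needed an adjusted p under 0.05 with a log2 fold change beyond 1 in either direction, and the standard error is the absolute log2 fold change divided by the square root of F. Each fit held only the libraries compared, except that tumor against non-tumor tissue and the interaction were fitted on the 15 libraries of 12 weeks. Levels are CPM over all 23 libraries, and correlations used log2 CPM with a prior count of 2. The script was tested on simulated counts. Alternatives were RLE scaling, DESeq2 1.42.0, limma-voom (limma 3.58.1), no filter, all 23 libraries in one fit, leaving out each library, the replicate number as a block and, added after seeing the data, only the 2 groups compared. The deposited table holds no columns of comparisons, and no column was left unused.

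Replicates of a group differed by more than sampling noise, with a chi-square of 16.6 to 126 per degree of freedom over 33 pairs (genes of at least 20 counts). The floor of counts given for *Lcn2* covers counting error only, whereas the standard errors and SDs include the spread between libraries. The 10 genes, 6 pathway lists and 11 marker lists were chosen with earlier results of these data known. The text names all 10 genes, up to 6 called genes of the pathway lists per comparison by lowest adjusted p, named relatives of the 10 genes, and the 3 genes with the highest within-group r to *Nos2*, *Nox1*, *Duox2* and *Lcn2*. Some further pathway genes were named after their values were seen, as stated where they appear.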

Additional observations from a re-analysis of the deposited data

Results flagged for a closer look

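In 5 of 50 groups checked, 1 library stood apart from the others of its group by Dixon's test, which chance gives in about 1 of 20 groups. *Nos2* had 1.71 CPM in BF BSHlow normal colon replicate 3, and the other 3 libraries had 0.584 to 0.774 CPM. *Noxa1* had 22.9 CPM in BF BSHlow non-tumor replicate 3, against 32.9 to 34.8 CPM. *Duoxa2* had 17.6 CPM in BF BSHlow tumor replicate 3, against 10.7 to 11.5 CPM. *Lcn2* had 0.379 CPM in BF BSHlow normal colon replicate 1, where the others were at 0 counts, so that any count would stand apart and chance is not 1 in 20, and 13 CPM in BF BSHlow non-tumor replicate 4, against 0.545 to 1.66 CPM.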

How the results depend on the processing

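*Lcn2* at 2 weeks and *Il22*, *Il17f* and *Il17c* in tumors had too few counts to be tested. Of the alternative fold changes of the 10 genes, 1048 kept their direction and side of the threshold, 36 lost the call, 15 gained it and 33 turned in direction, and the cause was not tested. Genes of the 10 called in tumors numbered 6, and 0 to 6 with 1 library left out, fewest without BF BSHlow replicate 1, 3 or 4 (0 each), BF BSHhigh replicate b (1) or a (3) or BF BSHlow replicate 2 (2). All genes called there numbered 73, against 534 with DESeq2, 41 with limma-voom, 320 without the filter and 578 with all 23 libraries in one fit. DESeq2 called 1 of the 10 genes in non-tumor tissue, 1 at 2 weeks and 2 in the interaction, beside 0.355%, 0.204% and 2.35% of all genes. With 1 library left out, the number called of the 10 was 2 to 5 for BF BSHhigh tumor against non-tumor tissue (5 without tumor replicate a). It was 0 to 1 for the interaction (1 without tumor replicate c) and 4 to 7 for time with BF BSHlow (7 without non-tumor replicate 3). In the fits named in parentheses, 29.4%, 1.99% and 21.8% of all genes were called. Pathway genes called between tumors numbered 0, against 5 without the filter, 9 with DESeq2, 7 with all 23 libraries and 0 to 2 with 1 library left out (2 without BF BSHhigh replicate c). They numbered 1 in non-tumor tissue with DESeq2. In the interaction they numbered 2, against 0 with limma-voom, 1 with all 23 libraries and 1 to 3 with 1 library left out (1 without BF BSHlow tumor replicate 2 or 4, BF BSHhigh tumor replicate a, BF BSHlow non-tumor replicate 3 or BF BSHhigh non-tumor replicate 1, 2 or 4).

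Directions turned in changes that had not passed the test. Between BF BSHhigh tumors and non-tumor tissue, *Nox1* was -0.018 on the log2 scale with RLE scaling and with DESeq2, and *Zc3h12a* was 0.13 with limma-voom, and in the interaction *Lcn2* was -0.077 with limma-voom. With 1 library left out, the log2 changes reached from -0.073 to 2.46 for *Lcn2* and -0.29 to 0.77 for *Steap4* in non-tumor tissue, and from -0.12 to 0.068 for *Noxa1* and -0.11 to 0.04 for *Nfkbiz* at 2 weeks. Tumor against non-tumor tissue reached from -0.36 to 0.022 for *Nfkbiz* with BF BSHlow, and with BF BSHhigh from -0.17 to 0.20 for *Nox1*, -0.58 to 0.14 for *Duoxa2*, -0.34 to 0.16 for *Zc3h12a*, -0.18 to 0.29 for *Nfkbiz* and -0.023 to 0.27 for *Steap4*. The interaction reached from -0.27 to 0.11 for *Noxa1*, -0.015 to 0.49 for *Zc3h12a*, -0.048 to 0.46 for *Nfkbiz* and -1.28 to 1.28 for *Lcn2*.

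The labels do not say whether same-numbered replicates share more than a number. Correlations of their deviations were -0.17 to 0.26, which cannot settle whether they share a mouse. With the replicate block 0 of the 10 genes were called in non-tumor tissue, 0 at 2 weeks, 4 between tumor and non-tumor tissue with BF BSHlow (*Steap4* lost, log2 -1.38, adjusted p = 0.116 from edgeR), 4 for time with BF BSHlow and 7 for time with BF BSHhigh. Pathway genes called under the block numbered 0, 0, 36, 21 and 22. In the same order, the block called 0.0067%, 0.00727%, 33%, 21.2% and 21.9% of all genes. No paired analysis was possible for comparisons with BF BSHhigh tumors because their columns carry no numbers of their own.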
